A study of Arabidopsis thaliana with 15 samples.

Results

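The early transcript response of Arabidopsis thaliana roots to nitrate was described by comparing 3 samples taken 1.5 h after nitrate supply with 3 samples taken just before it. These 6 samples of the 15 in the series were chosen by their labelled nitrogen source and time, and all 22746 probe sets with deposited values were tested. Plants of the wild-type accession Columbia-0 were grown hydroponically to growth stage 5.10 and kept for 26 h in medium without nitrogen, so both groups share this starvation. Roots of the control group were harvested at its end, and roots of the nitrate group 1.5 h after supply of 1 mM nitrate. Each group held 3 biological replicates, each a pool of roots from at least 5 plants, and each sample was hybridised to 1 Affymetrix ATH1 array, a one-colour oligonucleotide array. The other 9 samples, roots after 1.5 h of 1 mM ammonium and after 8 h of either ion, entered the fit for its estimate of spread. No roots kept without nitrogen were harvested at 1.5 h. The effect of nitrate therefore cannot be told apart from that of elapsed time, time of day or the handling of the medium. The counter-ion supplied with nitrate or with ammonium was not stated.

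Nitrate is both a nutrient and a signal for roots. It is taken up by transporters of the NRT2 and NPF families and reduced to nitrite in the cytosol and to ammonium in plastids. The reductions draw on NADH and on NADPH from the oxidative pentose phosphate pathway. Assimilation of the ammonium draws on carbon skeletons from organic acid metabolism. In parallel, nitrate sensing activates NIN-like transcription factors, whose first targets include genes of nitrate uptake, reduction and reductant supply as well as GARP-family repressors that later restrain the starvation response. Many genes that define this response in the literature, among them those of nitrate reductase and the main nitrate uptake transporter, had no probe set with a listed gene in the tables used here and were not analysed.

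Replicates of all groups correlated across probe sets at r = 0.9935 to 0.9978, and the least alike pair of all was replicates 1 and 2 before supply. Medians of the samples ranged from 6.776 to 6.833 log2 in the 6 samples. The median standard error of a difference was 0.0921 log2, a precision limited by the number of arrays. The root label was checked on 2 measured root hair expansins, EXPA7 and EXPA18, which lay between 10 and 10.68 log2 in every one of the 6 samples. EXPA18 differed by 0.41 ± 0.10 (limma adjusted p = 0.015), a call lost without replicate 2 or 3 before supply (0.058 and 0.06) and without replicate 1 or 3 of nitrate (0.075 and 0.051). The 7 measured genes of photosynthesis lay between 3.51 and 6.70 log2, and their summed linear level ranged from 283.5 to 313.5 before supply and from 298.7 to 325.5 with nitrate. None of these 7 genes changed. Other root and green tissue markers had no listed probe set here.

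A gene is said to have risen or fallen where the Benjamini-Hochberg adjusted p of limma, over all probe sets, was below 0.05. Differences are nitrate at 1.5 h minus before supply on the log2 scale ± the standard error of the fit, with 3 samples per group. With these criteria 3017 probe sets changed, or 13.3% of those tested. Of these, 1358 rose (5.97%) and 1659 fell (7.29%), and the median over all probe sets was -0.04. With array weights, which put most weight on replicate 3 before supply, 6061 were called. In whole-root samples, fewer cells of a type and less RNA per cell cannot be told apart.

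Large changes were mostly rises. Changes of at least 2-fold numbered 417 (1.83% of probe sets), with 322 rises and 95 falls. At 4-fold there were 86 rises and 8 falls, at 8-fold 21 rises and 1 fall, and at 16-fold 5 rises and 1 fall. Probe sets that rose at least 2-fold went from a median level of 7.13 to 8.77 log2, and those that fell at least 2-fold went from 7.77 to 6.47. The 3 values of each group did not overlap in 6201 probe sets (27.3%), a share to be read beside each such statement below. The deposited values carry no detection call, so levels below 5 log2 were not shown to be above background and no fold is given where a group mean lies there. This held before supply for 36 of the 322 large rises.

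**Figure D1:**
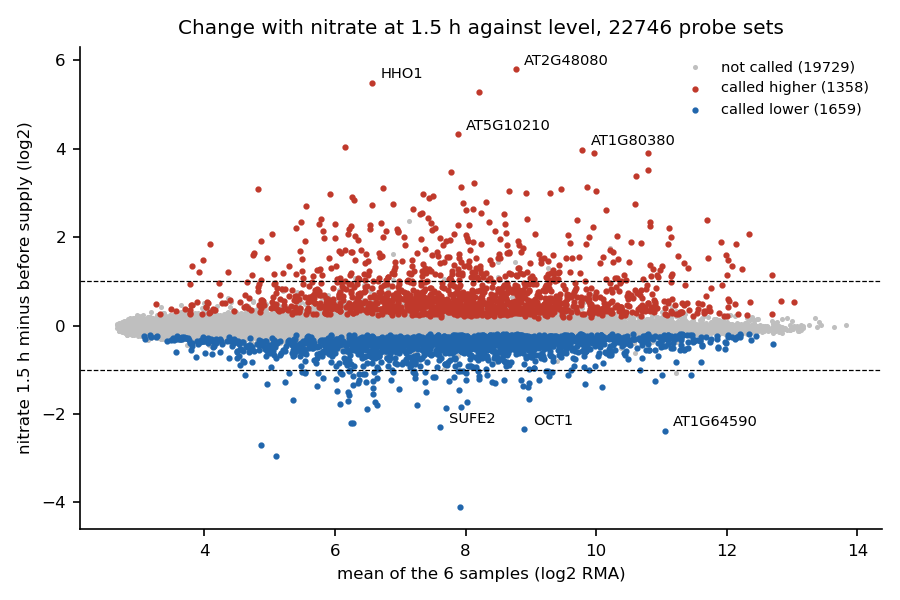
Difference between nitrate at 1.5 h and before supply (log2, y axis) against the mean of the 6 samples (log2 RMA, x axis) for 22746 probe sets, with 1358 called higher in red, 1659 called lower in blue and the others in grey. Dashed lines mark 2-fold, beyond which 322 called probe sets lie above and 95 below.

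The regulators of the nitrate response were led by HHO1 (AT3G25790), a GARP-family transcriptional repressor. Its levels were 3.95, 3.67 and 3.84 log2 before supply and 9.31, 9.42 and 9.23 with nitrate. The groups lay far apart, and the lower one was under the lower quartile of the arrays. The difference of the RMA values was 5.50 ± 0.10 (limma adjusted p = 1.5e-14), with no fold because the starting level was below 5 log2. HHO3 (AT1G25550), a close relative, measured 6.41, 6.47 and 6.40 before supply and 8.65, 8.71 and 8.54 with nitrate. It rose by 2.21 ± 0.12 or 4.63-fold (adjusted p = 2.1e-09 in limma), again without overlap. HHO2 (AT1G68670) measured 6.94, 6.72 and 6.66 before and 7.97, 7.90 and 7.84 after, a rise of 1.13 ± 0.10 (limma adjusted p = 9.8e-07). The rises of the family were not shared by HHO5 (-0.21 ± 0.10) and HHO6 (-0.10 ± 0.09), for which limma gave adjusted p = 0.2 and 0.58. NRG2, a regulator that acts in nitrate signalling, had 8.93, 8.94 and 9.01 before and 8.88, 8.98 and 9.0 after. In all, 3 of the 6 measured regulators rose and 0 fell, against 13.3% of all probe sets changed, and their median difference was 0.56.

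Genes of reductant supply rose in part. The oxidative pentose phosphate pathway yields NADPH in plastids, where nitrite is reduced in roots. PGD3 (AT5G41670), a 6-phosphogluconate dehydrogenase of plastids, measured 9.62, 9.70 and 9.66 before supply and 12.02, 11.93 and 12.05 with nitrate. The groups were more than 2 log2 units apart, and the rise was 2.34 ± 0.07 or 5.07-fold (limma adjusted p = 2.5e-12). Its relative PGD1 (AT1G64190) measured 11.02, 10.93 and 10.90 before and 12.47, 12.40 and 12.53 after, a rise of 1.52 ± 0.06 (limma adjusted p = 1.1e-10). The third enzyme of this family, PGD2, which is found in the cytosol and peroxisomes, differed by -0.14 (limma adjusted p = 0.17), and the transaldolase TAL1 by -0.02. Thus 2 of 4 measured members rose and 0 fell, against 11.7% of all listed genes changed.

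Primary carbon metabolism held further large rises. AT1G80380, which encodes glycerate kinase, the last enzyme of photorespiration, measured 7.85, 7.61 and 7.92 before supply and 11.97, 11.77 and 11.59 with nitrate. Its 3 samples with nitrate all lay above 11 log2, a level 15.8-fold higher (3.98 ± 0.11, limma adjusted p = 2.1e-12). AT1G78050, listed as PGM, encodes a phosphoglycerate mutase. It measured 7.86, 7.97 and 7.90 before and 10.93, 10.99 and 11.11 after, a rise of 3.1 ± 0.09 or 8.57-fold (limma adjusted p = 2.5e-12). Among 21 measured genes of the tricarboxylic acid cycle and of citrate use, 4 rose and 1 fell (23.8%, against 11.7% of all listed genes), with a median of 0.04. The largest of these rises was that of SDH1-2, a second gene for the flavoprotein subunit of succinate dehydrogenase, whose values went from 6.98, 6.96 and 7.0 to 7.77, 7.80 and 7.68. SDH1-1, the paralog with the higher level, differed by 0.01 (limma adjusted p = 0.95). IDH-VI rose by 0.56 ± 0.06 and IDH-V by 0.32 ± 0.07, both subunits of mitochondrial isocitrate dehydrogenase, and the 2-oxoglutarate dehydrogenase subunit OGDH1 rose by 0.36. ACLB-1, a subunit of the ATP-citrate lyase that makes acetyl-CoA in the cytosol, fell by 0.27. The call of OGDH1 was lost without replicate 1 before supply (limma adjusted p = 0.13), without replicate 2 or 3 of nitrate (0.13 and 0.087) and with only the 6 samples compared (0.12). That of ACLB-1 was lost without replicate 2 of nitrate (limma adjusted p = 0.053) and with only the 6 samples compared (0.065). OGDH1 and ACLB-1 were named after their values were seen.

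Of 20 loci listed as known from earlier root studies to rise with nitrate 13 were measured, and all 13 rose (median 2.75), against 11.7% of all listed genes called. The list was compiled with knowledge of such experiments and of results of these data, so it gives no independent evidence. AT2G48080, a gene of the 2-oxoglutarate and iron dependent dioxygenase family, was among them. Its levels were 5.87, 5.98 and 5.74 before supply and 11.66, 11.68 and 11.68 with nitrate. The 3 nitrate samples were nearly identical, and the rise was 5.81 ± 0.09 or 56-fold (limma adjusted p = 1.8e-15). AT5G10210 measured 5.66, 5.38 and 6.09 before and 10.08, 10.22 and 9.84 after, a rise of 4.34 ± 0.20 or 20.2-fold. AT1G49500, AT1G16170 and AT5G19970 rose by 2.75 ± 0.12, 1.83 ± 0.08 and 1.52 ± 0.08. The 13 also include HHO1, HHO2, HHO3, PGD1, PGD3, AT1G80380 and AT1G78050, described above, and AT5G62720, described below.

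Membrane transport changed in both directions. AT5G62720 encodes a membrane protein of the plastid envelope involved in nitrite transport. It measured 6.60, 6.03 and 6.44 before supply and 9.69, 9.37 and 9.41 with nitrate, a rise of 3.13 ± 0.14 or 8.76-fold (limma adjusted p = 3.5e-10). AT5G19700, of the MATE family of organic solute exporters, rose by 2.80 ± 0.14 from 7.0, 6.79 and 6.96 to 9.84, 9.59 and 9.71. In the NPF family of nitrate, peptide and hormone transporters 2 of 11 measured members rose and 1 fell (27.3%, against 11.7% of all listed genes), with a median of -0.09. AT1G59740 (NPF4.3) accounted for the only large difference among them, from 8.02, 7.44 and 7.69 to 8.83, 8.97 and 8.94 (1.2 ± 0.12, limma adjusted p = 2.5e-06). The other rise was that of AT1G72125 (0.30 ± 0.08), lost without replicate 2 or 3 before supply (limma adjusted p = 0.074 and 0.05), without replicate 1 or 3 of nitrate (0.083 and 0.075) and with only the 6 samples compared (0.082). The fall was that of NRT1.4, whose call was also lost with some samples left out (values given with NRT2.5). The glucosinolate transporters GTR1 and GTR2 of the same family differed by -0.14 and 0.09 (limma adjusted p = 0.25 and 0.51). OCT1, an organic cation and carnitine transporter, measured 10.30, 10 and 9.92 before and 8.09, 7.35 and 7.74 after. It fell 5.1-fold (-2.35 ± 0.22, limma adjusted p = 1.3e-06), without overlap. CHX16, a cation/proton exchanger, fell by 1.18 ± 0.12 (limma adjusted p = 4.3e-06). These were the 2 falls among 9 measured potassium and cation transporters, of which 0 rose (22.2% called, against 11.7% of all listed genes).

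NRT2.5, which takes up nitrate at low concentrations in starved roots, was still near its starting level at 1.5 h. It measured 11.61, 11.63 and 11.63 before supply and 11.04, 10.98 and 11.21 with nitrate. The groups did not overlap, and the difference was -0.54 ± 0.16 (limma adjusted p = 0.033). The call was lost when any of 5 samples was left out (adjusted p = 0.072, 0.072 and 0.079 without replicate 1, 2 or 3 before supply, and 0.09 and 0.12 without replicate 1 or 2 of nitrate, all in limma). NRT1.4 (AT2G26690, NPF6.2), which stores nitrate in petioles, measured 6.2, 6.31 and 6.35 before and 6.11, 5.46 and 5.75 after (-0.51 ± 0.14, limma adjusted p = 0.023). Its call was lost without replicate 2 or 3 before supply (limma adjusted p = 0.059 and 0.076) and without replicate 2 or 3 of nitrate (0.13 and 0.068).

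Sulfur and iron metabolism showed 1 large change. SUFE2, an activator of the plastid cysteine desulfurase that feeds iron-sulfur cluster assembly, measured 8.99, 8.60 and 8.70 before supply and 6.54, 6.64 and 6.22 with nitrate. Every nitrate sample lay well below every control sample, a 4.89-fold fall (-2.29 ± 0.18, limma adjusted p = 1.5e-07). Sulfite reductase, SIR, a siroheme and iron-sulfur enzyme, was the only other called member of the 5 measured genes of sulfate assimilation (0.27 ± 0.08, limma adjusted p = 0.028). The call was lost without replicate 2 or 3 before supply (limma adjusted p = 0.11 and 0.072) and without replicate 2 or 3 of nitrate (0.1 and 0.096). The siroheme synthesis gene SIRB, whose product both nitrite and sulfite reductase need, measured 7.72, 7.79 and 7.82 before and 7.86, 7.64 and 7.77 after. Of 6 measured genes of iron deficiency and coumarin synthesis 0 rose and 2 fell, against 11.7% of all listed genes changed. They were BHLH101, a transcription factor of iron deficiency (-0.69 ± 0.12, with both group means below 5 log2, at 4.88 and 4.19), and BGLU42, a glucosidase that releases coumarins (-0.30 ± 0.07).

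CC-type glutaredoxins, small plant-specific redox proteins several of which respond to nitrogen status, moved in opposite directions. Of 17 measured members 2 rose and 3 fell (29.4%, against 11.7% of all listed genes), with a median of 0.02. AT3G62930 (GRXS6) measured 4.14, 4.40 and 4.06 before supply and 7.04, 6.57 and 7.12 with nitrate (2.71 ± 0.17, limma adjusted p = 1.5e-08). ROXY2, named after its values were seen, rose 4.01-fold from 6.37, 5.84 and 5.97 to 8.25, 7.95 and 7.98. AT4G33040 went the other way, from 9.12, 8.72 and 8.72 to 7.09, 6.87 and 7.04 (-1.85 ± 0.11, limma adjusted p = 9.8e-09). AT5G11930 fell as well, from 8.2, 8.04 and 8.2 to 6.68, 6.49 and 6.76 (-1.50 ± 0.10). The third fall, of AT2G47880 (GRXC13), was -0.44, with a group mean under 5 log2. That call was lost after centring (limma adjusted p = 0.071), without replicate 1 before supply (0.19), without replicate 2 or 3 of nitrate (0.18 and 0.14) and with only the 6 samples compared (0.13).

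The other large rises covered proteins of several kinds. The neighbouring genes AT2G30660 and AT2G30670, with 0 other protein-coding genes between them on chromosome 2, rose by 3.11 ± 0.24 and 4.05 ± 0.27. In both, nitrate replicate 2 was highest and replicate 3 lowest, at 8.70 and 7.94 for AT2G30660 and 8.54 and 7.79 for AT2G30670. LTI30, a dehydrin known from cold and dehydration responses, measured 8.44, 8.41 and 8.55 before and 11.42, 11.48 and 11.66 after, an 8.3-fold rise (3.05 ± 0.10, limma adjusted p = 6.3e-12). AT4G18340 rose by 3.01 ± 0.08, AT2G22200, an ERF-family transcription factor, by 2.99 ± 0.17, and AT3G16560, a protein phosphatase of the PP2C family, by 2.92 ± 0.11. AT3G53770 and AT4G25835 rose by 2.91 ± 0.09 and 2.84 ± 0.19. Of the 15 largest rises among probe sets with 1 listed gene, 5 started from a group mean under 5 log2.

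The 15 largest falls among probe sets with 1 listed gene lay between -2.37 and -1.48, and 1 of them ended below 5 log2. AT1G64590, of the short-chain dehydrogenase family, was among the 5 most abundant named genes that changed at least 2-fold. It measured 12.41, 12.11 and 12.20 before and 9.72, 10.10 and 9.77 after, a 5.19-fold fall (-2.37 ± 0.15, limma adjusted p = 1.8e-08). AT2G33710, an ERF-family transcription factor, fell by 2.2 ± 0.17 on the log2 scale from 7.76, 7.13 and 7.13 to 5.37, 4.82 and 5.22. AT2G40250, a GDSL-type esterase or lipase, fell 4.58-fold, and AT5G45650, a subtilisin-like protease, fell 3.72-fold. Further falls were those of AT5G02000 (-1.81 ± 0.14), AT1G55790 (-1.79 ± 0.13), AT2G15830 (-1.73 ± 0.10), the aldo-keto reductase gene AT1G60750 (-1.68 ± 0.10), AT1G22160 (-1.65 ± 0.09), the polygalacturonase-like gene AT4G01890 (-1.55 ± 0.11) and the acetyltransferase-like gene AT5G67430 (-1.48 ± 0.18). Over these 15 rises and 15 falls the highest adjusted p was 3.1e-05, and under the 13 other settings tried it was 0.00045. Genes chosen for their large difference had to lie apart, so these p-values describe the genes and do not test the choice.

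**Figure D2:**
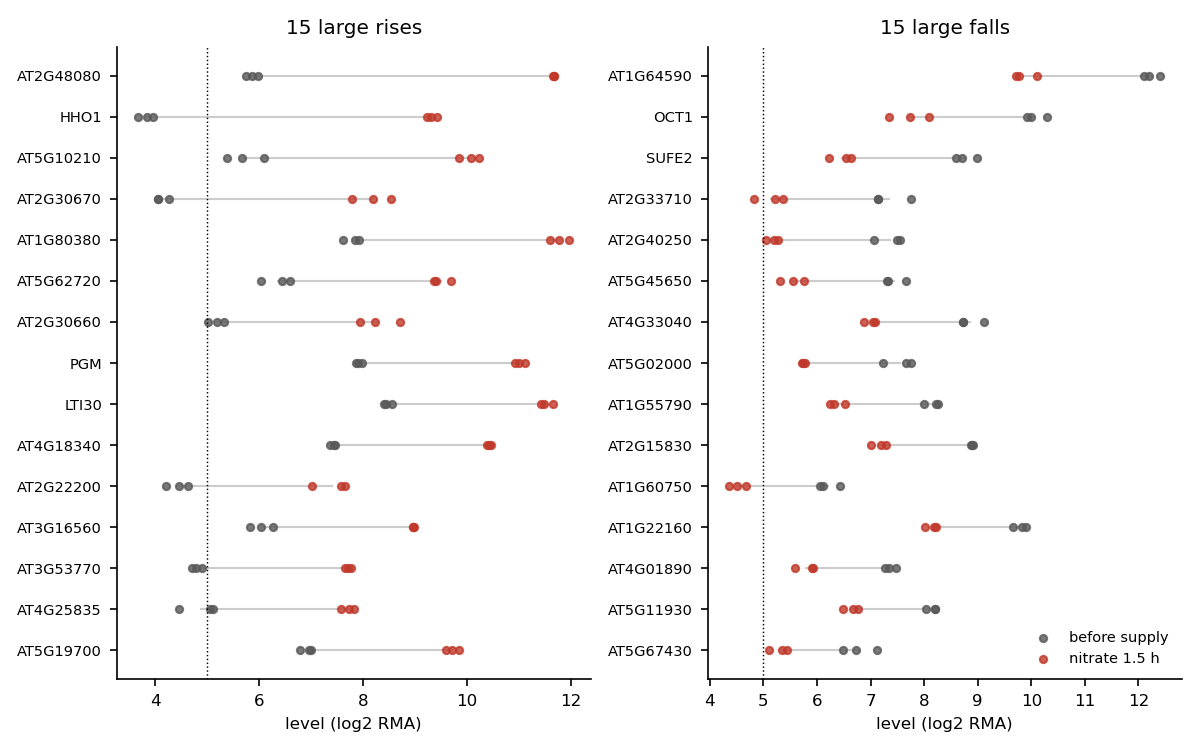
Levels (log2 RMA, x axis) of the 15 named genes with large rises (left) and the 15 with large falls (right) in the 3 samples before supply (grey) and the 3 with nitrate at 1.5 h (red), each point 1 sample and each line joining the group means. The dotted line is 5 log2, below which 5 of the rises started and 1 of the falls ended.

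Some of the largest changes were of probe sets with no listed gene. Probe set 260624_at went from 5.97, 5.17 and 5.55 to 10.82, 10.86 and 10.88, and 265475_at from 8.82, 8.82 and 8.87 to 12.76, 12.67 and 12.81. Probe set 254215_at had the one fall beyond 16-fold, from 9.94, 9.90 and 10.06 to 5.90, 6.17 and 5.50 (-4.11 ± 0.20). A further fall was that of 251472_at (-2.70 ± 0.09), which ended at 3.38, 3.59 and 3.56. At the high end of the range, AT3G15450 and the late embryogenesis abundant protein gene AT2G23120 rose by 1.16 ± 0.13 and 1.13 ± 0.09 from above 10 log2, and AT4G16190, a papain-like cysteine protease, fell by 1.1 ± 0.11 from above 11 log2.

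Detoxification and secondary metabolism families held more falls than rises, as did all listed genes together (691 rises and 877 falls). Of 14 measured glutathione S-transferases 1 rose and 5 fell, of 22 cytochromes P450 1 rose and 4 fell, and of 51 UDP-glycosyltransferases 3 rose and 7 fell. Their medians were -0.06, -0.11 and -0.07, against -0.04 over all 13355 listed genes, of which 11.7% changed. GSTU22 and GSTU23, direct neighbours on chromosome 1, fell by 1.29 ± 0.11 and 0.53 ± 0.09. GSTU20, with 1 other protein-coding gene between it and GSTU22, fell by 0.58 ± 0.10. GSTU22 values were 9.07, 9.04 and 9.02 before and 7.63, 7.54 and 8.10 after. Probe sets of related neighbouring genes may share signal, which was not tested. CYP78A9, a P450 that promotes organ growth, was the only P450 to rise among the 22 measured of 240 listed. It went from 6.98, 6.63 and 6.60 to 8.86, 8.96 and 9.25 (4.88-fold, limma adjusted p = 3.4e-09). CYP71B23 and CYP71B28 fell by 1.03 ± 0.09 and 0.92 ± 0.08, while 12 of the 17 P450 genes that were not called lay below 5 log2 in both groups. UGT76B1, which glucosylates isoleucic acid and salicylic acid, rose by 0.77 ± 0.09. UGT76D1 and UGT72E2, the latter a glucosyltransferase of monolignols, fell by 0.73 ± 0.11 and 0.56 ± 0.07.

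Cell wall and growth lists held rises and falls, with 20% of the xyloglucan endotransglucosylases, 21.1% of the expansins and 17.6% of the peptide genes called, against 11.7% of all listed genes. XTH16, a xyloglucan endotransglucosylase that remodels wall polymers, measured 9.35, 9.62 and 9.69 before and 8.21, 8.13 and 8.25 after, a 2.56-fold fall (-1.36 ± 0.08, limma adjusted p = 1.3e-08). XTH21 rose by 0.63 ± 0.10, and these were the only called members of 10. Among 19 expansins 1 rose and 3 fell with a median of -0.11, and among 17 peptide genes of the CLE, RALF and CEP families 0 rose and 3 fell. RALFL27 had the largest of these falls (-0.45 ± 0.09). Of 6 class III peroxidases none was called.

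Transcription factor and hormone lists held calls in both directions, to be read beside the 11.7% of all listed genes that changed. Of 22 bZIP and TGA factors 3 rose and 2 fell, with a median of 0.01. bZIP58 measured 7.53, 7.60 and 7.56 before and 8.44, 8.14 and 8.34 after (0.74 ± 0.10, limma adjusted p = 4.5e-05), and BZIP53, a factor of low-energy responses, rose by 0.56 ± 0.09. BZIP61 fell by 0.38 ± 0.08. HYH, a light-signalling bZIP factor that shares functions with HY5, was not among these 22 and was named for its later fall. It measured 5.23, 5.23 and 5.04 before and 7.23, 7.28 and 7.22 after, a 4.22-fold rise (2.08 ± 0.19). Of the clock genes, 2 of 3 measured members rose, COR28 by 1.29 ± 0.12 and GI by 0.39 ± 0.08. For these genes nitrate and time of day cannot be told apart. The auxin lists held 1 rise and 1 fall among 7 Aux/IAA and response factor genes and 2 rises and 1 fall among 8 SAUR and GH3 genes. IAA31, an Aux/IAA gene, differed by 0.69 ± 0.18 (limma adjusted p = 0.017), a call lost without replicate 1 before supply (0.058), without replicate 1 or 3 of nitrate (0.072 and 0.066) and with only the 6 samples compared (0.11). IAA18 differed by -0.27 ± 0.08 (limma adjusted p = 0.046), with the adjusted p between 0.057 and 0.16 in 7 other fits. GH3.17 rose by 0.46 ± 0.10, and GH3.1 by 0.38 ± 0.10, the latter not called without replicate 1 before supply (limma adjusted p = 0.068) or replicate 3 of nitrate (0.089). In a list of 11 genes of abscisic acid signalling and dehydration 2 rose and 0 fell. These were COR47, a dehydrin, from 11.56, 11.36 and 11.44 to 12.41, 12.28 and 12.45, and CP1, a papain-like protease taken in by its alternative name (1.25 ± 0.12). Of 7 WRKY factors 1 rose and 0 fell, a call of WRKY22 lost without replicate 3 before supply (limma adjusted p = 0.12), without replicate 1 or 3 of nitrate (0.1 and 0.087) and with only the 6 samples compared (0.062), and of 7 bHLH factors 0 rose and BHLH101 alone fell. Of 8 calmodulin-like genes CML38 rose and CML43 fell (-0.52 ± 0.08).

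**Figure D3:**
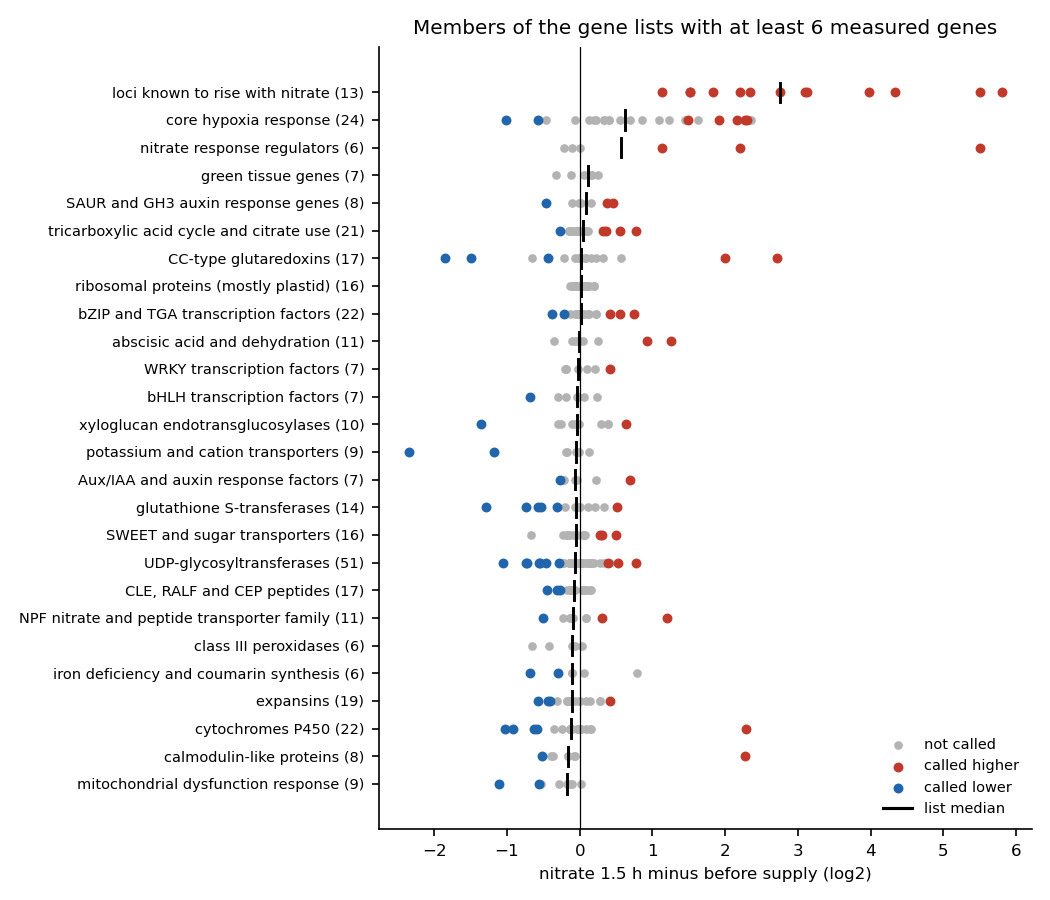
Difference between nitrate at 1.5 h and before supply (log2, x axis) for each measured member of the gene lists with at least 6 measured genes (rows, number in brackets), called higher in red, called lower in blue and not called in grey. Black ticks are list medians, which range from -0.17 for the mitochondrial dysfunction list to 2.75 for the loci known to rise with nitrate.

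Genes of the core hypoxia response differed widely between the nitrate replicates. This set, induced in Arabidopsis when oxygen is short, includes fermentation enzymes and regulators of the response. Of 24 measured members 5 rose and 2 fell (29.2%, against 11.7% of all listed genes), with a median of 0.63. The mean deviation of the 24 genes from their 15-sample means was -0.70, -0.58 and -0.97 log2 before supply and 0.29, 0.78 and -0.83 with nitrate. The level in nitrate replicate 3 thus lay inside the range of the control samples, while replicates 1 and 2 lay above it. HRA1, a trihelix factor that attenuates the hypoxia response, measured 6.63, 6.74 and 5.86 before and 8.84, 9.73 and 7.14 after. PDC2, a pyruvate decarboxylase of ethanolic fermentation, measured 7.98, 7.57 and 7.35 before and 9.14, 10.16 and 8.09 after. AT1G33055 measured 7.50, 7.81 and 7.05 before and 10.06, 10.68 and 8.50 after. Their differences were 2.16 ± 0.53, 1.49 ± 0.41 and 2.3 ± 0.49 (limma adjusted p = 0.011, 0.022 and 0.0042). Without single samples the adjusted p in limma was up to 0.068 for HRA1 and up to 0.12 for PDC2, both without replicate 2 of nitrate. HRA1 and PDC2 were named after their values were seen. In each of the 3 genes, replicate 3 of nitrate was the lowest of its group and still above every control value.

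CML38, a calmodulin-like protein of hypoxic stress granules, measured 5.09, 6.24 and 4.86 before and 7.79, 9.04 and 6.17 after, with overlap between the groups. AT4G39675 also overlapped, with 9.07 in replicate 3 before supply against 8.60 in replicate 3 of nitrate. The limma adjusted p of CML38 was 0.032 and that of AT4G39675 0.035. Leaving out single samples ended the call of CML38 (limma adjusted p = 0.098 and 0.11 without replicate 1 or 3 before supply, 0.087 and 0.17 without replicate 1 or 2 of nitrate). For AT4G39675 the adjusted p in limma was 0.096 and 0.14 without replicate 1 or 2 before supply and 0.15 and 0.13 without replicate 1 or 2 of nitrate. The count of rises in the list was 10 without replicate 3 of nitrate and 1 without its replicate 2. It was 2 without replicate 1 of nitrate, and 3, 3 and 2 without replicate 1, 2 or 3 before supply. With a variance trend it was 1, with only the 6 samples compared 2, and with array weights 9. AT3G61930 fell (-1.02 ± 0.09) with an SD of 0.08 before supply and 0.16 with nitrate. AT1G74940 fell (-0.58 ± 0.12) with an SD of 0.07 before supply and 0.29 with nitrate. What set the nitrate samples apart in the genes of this list was not tested.

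**Figure D4:**
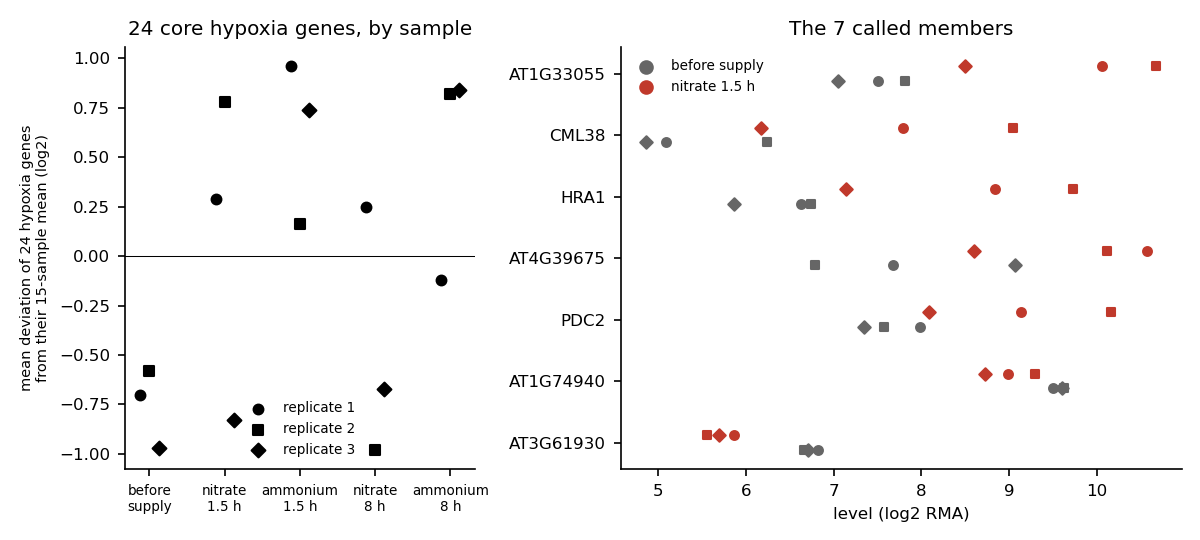
Left, mean deviation of 24 core hypoxia genes from their 15-sample means (log2, y axis) in each sample of the 5 groups, with a symbol per replicate number. The nitrate samples at 1.5 h lie at 0.29, 0.78 and -0.83, the last inside the range before supply of -0.97 to -0.58. Right, levels (log2 RMA, x axis) of the 7 called members in the 3 samples before supply (grey) and the 3 with nitrate (red).

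The remaining lists ranged from no calls to calls in every measured member, beside 11.7% of all listed genes. Of 9 genes of the mitochondrial dysfunction response 0 rose and 2 fell, the larger fall that of AT5G14730, from 7.16, 6.91 and 6.88 to 5.99, 5.82 and 5.83 (-1.11 ± 0.11). Of 4 touch and wound genes CML38 alone was called. The mean deviation of these 4 genes was -0.75, -0.51 and -0.85 before supply and -0.14, 0.36 and -0.56 with nitrate. Replicates 2 and 3 of nitrate were thus highest and lowest, as in the hypoxia list. CML38 belongs to both lists and measured 9.04 and 6.17 in these samples, so this order is not a separate observation. SWEET13, SWEET16 and SWEET17, sugar exporters and vacuolar sugar transporters, rose by at most 0.50 log2 among 16 sugar transporter genes with 0 falls. The call of SWEET13 was lost without replicate 2 of nitrate (limma adjusted p = 0.06). For SWEET16 the adjusted p in limma was 0.13 without replicate 1 or 2 before supply, and 0.12, 0.086 and 0.072 without replicate 1, 2 or 3 of nitrate. No member changed among 5 histones, 4 autophagy genes, 3 ribosome biogenesis genes and 16 ribosomal protein genes, nearly all of the latter of plastids. In these 4 lists the medians lay between -0.16 and 0.05. Lists with 1 or 2 measured members (cytokinin, flavonoids, LBD, homeobox, heat shock, cell cycle and a germin-like gene) gave no call. Of 2 measured lignin synthesis genes CCR2 rose by 0.72 ± 0.14 and HCT fell by 0.32 ± 0.08 (limma adjusted p = 0.015 for HCT). The call of HCT was lost without replicate 1 before supply (limma adjusted p = 0.066), without replicate 2 of nitrate (0.065) and with only the 6 samples compared (0.063). The glutamine amidotransferase-like gene GAT1_2.1 had values of 6.64, 6.55 and 7.54 before and 7.96, 7.20 and 6.82 after, which overlapped (0.42 ± 0.28, limma adjusted p = 0.39). A second, lower probe set of this gene had means of 5.14 before and 4.98 after (-0.16 ± 0.31, limma adjusted p = 0.81).

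To ask which early changes depended on the ion, roots at 1.5 h of nitrate were set directly against roots at 1.5 h of ammonium, which removes elapsed time from the difference. The 2 groups differed in 2430 probe sets (10.7%), with 1275 higher and 1155 lower with nitrate. Of the 15 large rises 14 were higher with nitrate than with ammonium, and of the 15 large falls 12 were lower, but these genes were chosen on the same nitrate samples and had to be high or low in them. Against the roots before supply, all of these rises except HHO1 and AT2G22200 were also called higher with ammonium. AT2G48080 rose by 4.11 with ammonium, AT1G80380 by 2.71 and LTI30 by 2.53. All of the falls except OCT1 and AT2G33710 were also called lower with ammonium. AT3G16560 was the one rise without a difference, at 0.19 ± 0.11 (limma adjusted p = 0.38). The falls without a difference were AT4G33040, AT5G11930 and AT1G22160 (-0.24, -0.02 and 0.03). HHO1 lay below 5 log2 both before supply and with ammonium (mean 3.82 in each), where it was not shown to be above background. Its RMA values differed between the ions by 5.50 ± 0.10 (limma adjusted p = 3e-14), with no fold given. The differences of HHO3 (-0.05 ± 0.12) and HHO2 (-0.23 ± 0.10) were not called (limma adjusted p = 0.85 and 0.19). With ammonium HHO3 and HHO2 rose by 2.26 and 1.36 from the roots before supply. Among the genes highest with nitrate were AT2G22200 (2.71 ± 0.17), AT2G30670 (2.65 ± 0.27), AT5G62720 (2.62 ± 0.14), AT5G01740 (2.55 ± 0.13) and AT5G19700 (2.32 ± 0.14).

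Genes lower with nitrate than with ammonium included some that fell with nitrate and some that rose with both ions. AT2G33710 differed by -2.67 ± 0.17 and OCT1 by -1.90 ± 0.22. AT2G20670 rose by 1.34 ± 0.11 with nitrate and by 3.23 with ammonium, a difference of -1.89 ± 0.11 (limma adjusted p = 1.2e-08). It was named for that difference, so its p-value does not test the choice. PGD3 and PGD1 were higher with nitrate, by 1.39 ± 0.07 and 1.03 ± 0.06. GAT1_2.1, on its probe set with the higher mean level, was lower by 3.05 ± 0.28, having risen by 3.46 with ammonium. Each ion was compared with the same control samples, so only these direct differences test the ions against each other. The counter-ions were not stated, so their part in these differences cannot be told apart from that of nitrate and ammonium.

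How far the change at 1.5 h held was asked by setting 8 h of nitrate directly against 1.5 h. An effect of nitrate in this difference cannot be told apart from that of elapsed time or time of day. The groups differed in 2697 probe sets (11.9%), of which 1322 were higher and 1375 lower at 8 h. NRT2.5 dropped further by 5.51 ± 0.16 log2 between the times (limma adjusted p = 1e-11), from a mean of 11.08 to 5.57, and OCT1 by 3.39 ± 0.22. The rises of LTI30 and HYH at 1.5 h were followed by falls of 2.41 ± 0.10 and 1.73 ± 0.19. AT4G18280 fell by 1.81 ± 0.15 after its rise, and AT1G22160, which had fallen, fell again by 2.01 ± 0.09. Genes that went on rising were AT3G46880 (2.01 ± 0.18), AT5G26200 (1.84 ± 0.30) and AT1G33340 (1.77 ± 0.11). With ammonium the mean of AT1G33340 went from 5.49 to 7.19, that of AT3G46880 from 4.22 to 4.71 and that of AT5G26200 from 5.42 to 5.33. HHO1 was lower by 0.58 ± 0.10 at 8 h, while HHO3, HHO2 and AT1G80380 differed by 0.09, 0.13 and -0.04 and were not called. PGD3 was lower by 0.53 at 8 h and PGD1 differed by -0.12 (limma adjusted p = 0.25).

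**Figure D5:**
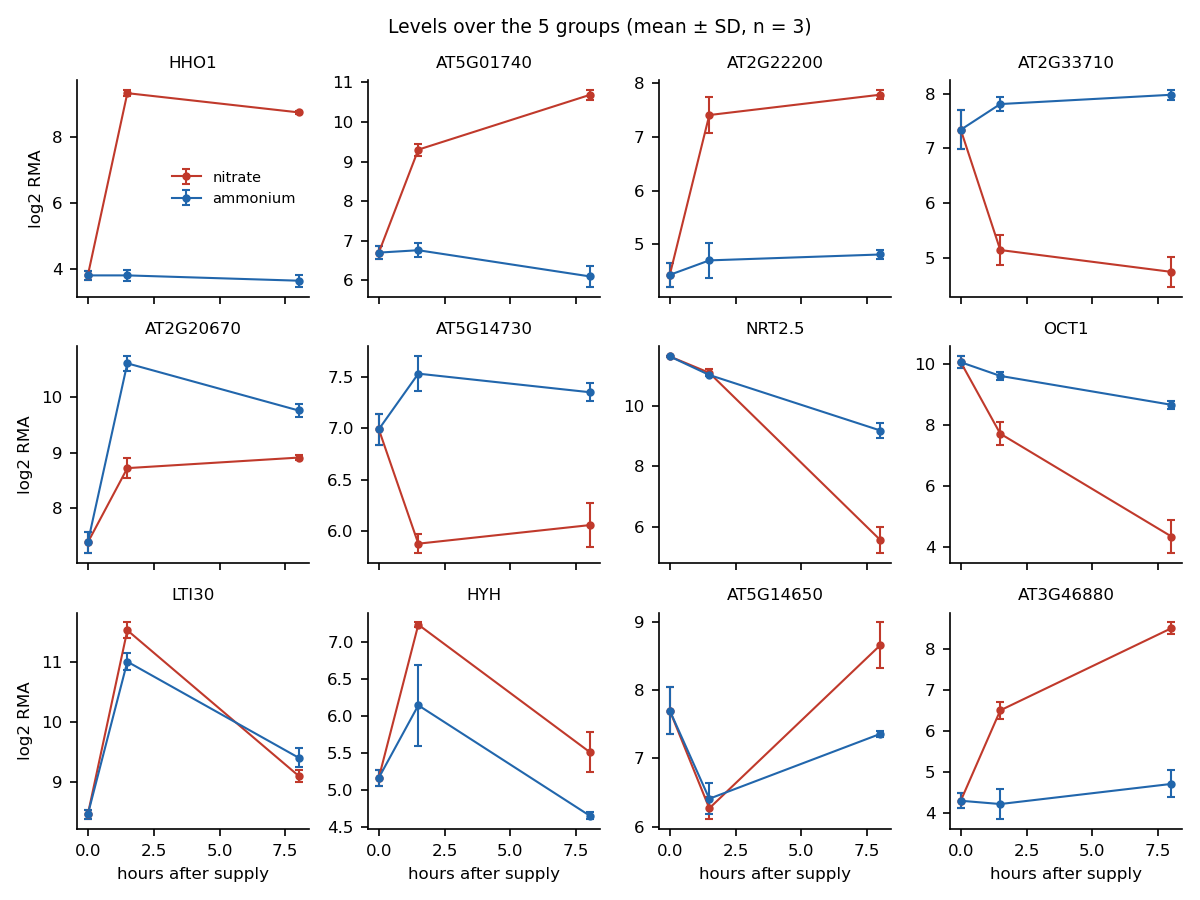
Levels (log2 RMA, y axis) of 12 named genes over hours after supply (x axis) with nitrate (red) or ammonium (blue), points and bars mean ± SD of 3 samples, the point at 0 h being the shared samples before supply. HHO1, AT5G01740, AT2G22200 and AT3G46880 stand higher with nitrate at 1.5 h, and NRT2.5 drops between 1.5 h and 8 h.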

How the data were processed

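The authors deposited a table of log2 expression values per probe set. RMA and limma are named for it, per the submitters' processing notes, with no version or role. That the scale is log2 follows from their range of 2.45 to 13.96. RMA summarises background-corrected, quantile-normalized probes, so each difference is relative to the array as a whole. No scanner files were used here.

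Values were used unfiltered. GEO's platform annotation gave 1 gene for 13513 probe sets, several for 503 and none for 8730. A RefSeq gene table (TAIR10.1) matched 13484 of them. For 147 genes with more than 1 probe set, the one highest on average was used. HHO1 to HHO3, HHO5, HHO6, NRG2, PGD1, PGD3, NRT1.4, GRXS6 and GRXC13 are names added by locus.

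All 15 samples were fitted in limma 3.58.1 (R 4.3.3) with 5 group means, two-sided, Benjamini-Hochberg adjusted per comparison and called below 0.05 (prior degrees of freedom 5.11, residual 10). The procedure was tested on simulated data. Figures were drawn in Python 3.11.15.

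The comparison, the 59 gene lists (46 with a measured member) and the naming rule were chosen with earlier results of these data known. Many lists were measured only in part, so their counts do not describe whole families. Measured were 7 of 72 WRKY entries, 6 of 34 nitrate regulators, 4 of 19 pentose phosphate genes and 3 of 21 clock genes. Coverage was higher for UDP-glycosyltransferases, with 51 of 64. The rule took the 15 largest rises and 15 largest falls among probe sets with 1 listed gene that were called without overlap between groups. It added up to 3 called members of each list, the 6 largest called differences in each direction between the ions and between the times, 2 rises and 2 falls without a listed gene, 5 abundant genes that changed at least 2-fold, and a set of nitrate genes. Other called members of short lists were named after their values were seen.

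Alternatives were a second quantile normalization, centring on medians, a filter at 5 log2, a variance trend with robust estimation, array weights, a replicate block, a fit of only the 6 samples compared, and leaving out each replicate.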

Additional observations from a re-analysis of the deposited data

Results flagged for a closer look

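For 3 named genes the change at 1.5 h of nitrate turned round by 8 h, with calls in opposite directions against the roots before supply. The direct limma comparison of 8 h with 1.5 h gave -1.01 ± 0.13 log2 for SWEET13 (adjusted p = 7.5e-05), -1.31 ± 0.10 for bZIP58 (adjusted p = 2.4e-07) and 2.39 ± 0.17 for AT5G14650 (adjusted p = 2.1e-07). Their differences from the roots before supply were 0.50, 0.74 and -1.43 at 1.5 h and -0.52, -0.57 and 0.96 at 8 h. Over all probe sets 71 showed such a turn. AT5G14650 was named for its large difference between the times, so its p-value for that difference does not test the choice. With ammonium the 3 named genes moved the same way between the times. Their means at 1.5 h and 8 h of ammonium were 8.33 and 7.34, 7.88 and 6.08, and 6.41 and 7.36. Nitrate cannot be told apart from elapsed time or time of day here.

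For 4 named genes the ions gave opposite calls at 1.5 h. The direct limma comparison of nitrate with ammonium gave -1.65 ± 0.11 for AT5G14730 (adjusted p = 1e-07), -1.76 ± 0.17 for AT2G32020 (adjusted p = 3.4e-06), -1.33 ± 0.11 for UGT76D1 (adjusted p = 4.5e-07) and -1.75 ± 0.12 for AT3G61390 (adjusted p = 1e-07). With nitrate they differed from the roots before supply by -1.11, -0.56, -0.73 and -1.05, and with ammonium by 0.54, 1.2, 0.60 and 0.69. Over all probe sets 69 did so. AT5G14730, AT2G32020 and AT3G61390 were among the genes named for their large differences between the ions. Their p-values between the ions describe the genes and do not test the choice. The fall of AT2G32020 with nitrate (adjusted p = 0.038) lost its call without replicate 1 or 2 before supply (0.13 and 0.076) and without replicate 1, 2 or 3 of nitrate (0.15, 0.052 and 0.076).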

How the results depend on the processing

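With array weights, 6061 probe sets were called for nitrate at 1.5 h in place of 3017. The weights were 0.252, 0.628 and 7.64 for replicates 1, 2 and 3 before supply, so that this fit rested mostly on 1 control sample. The other fits on all replicates gave 2206 to 3302 calls, the lowest with only the 6 samples compared. Leaving out 1 replicate gave 2227 to 2898 calls, 1730 to 2109 for nitrate against ammonium (2430 with all) and 1970 to 2277 for 8 h against 1.5 h (2697 with all). Changes of at least 2-fold numbered 396 to 447 under all settings. Rises made up 45% of calls, 47.2% after centring on medians and 46.5% after a second quantile normalization, 51.1% with only the 6 samples compared (1128 rises against 1078 falls), 50.2% without replicate 2 of nitrate (1118 against 1109) and 40.5% with array weights.

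With a replicate block 3302 probe sets were called for nitrate, 2754 between the ions and 2989 between the times. The numbers were not taken to pair the samples. Same-numbered samples before supply and with nitrate deviated together at r = 0.174, 0.088 and -0.012 only. Replicate 2 before supply deviated most with replicate 3 of nitrate (0.124). Same-numbered samples of the 2 ions at 1.5 h gave 0.085, -0.05 and -0.162. Those of nitrate at 1.5 h and 8 h gave 0.369, -0.007 and 0.243. The call of AT2G32020 was lost with the replicate block (limma adjusted p = 0.052).

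Of the 110 named genes called, 90 kept the call under every setting run and 20 lost it under at least 1, all with log2 differences of the same sign. Over 1761 values of named genes 97 lost a call, 24 gained one and none was reversed. The count of called list members was 94, 90 after centring and 98 with the filter at 5 log2. Counts within lists moved more: over the 13 settings beside the main one, UDP-glycosyltransferases had 3 to 9 rises and 5 to 12 falls, glutathione S-transferases 0 to 3 and 4 to 6, expansins 0 to 2 and 1 to 5, bZIP factors 2 to 5 and 1 to 3, and the CLE, RALF and CEP peptides 0 to 1 and 1 to 4. The regulators (3 rises), the pentose phosphate genes (2) and the loci known to rise with nitrate (13) had the same number of rises under each. With array weights the regulators and the pentose phosphate genes each also had 1 fall, against 0 in the main fit. The counts of rises are not separate, because HHO1, HHO2, HHO3, PGD1 and PGD3 are also among the 13 loci. Promoter motifs were not run, as no promoter sequences were used here. With 3 arrays per group, levels under 5 log2 and differences near the median standard error of 0.0921 log2 are not resolved.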

Other observations

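In the groups outside the comparison, the mean deviation of the 24 core hypoxia genes was 0.96, 0.16 and 0.74 log2 in the 3 ammonium samples at 1.5 h. It was 0.25, -0.98 and -0.67 in the nitrate samples at 8 h and -0.12, 0.82 and 0.84 in the ammonium samples at 8 h. Replicates of a group thus differed by more than 1 log2 unit with nitrate at 8 h as they did at 1.5 h. The cause was not tested.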
